A study of Ovis aries with 36 samples.

Results

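The 50 transcripts described here have the highest mean deposited values in sheep infraspinatus muscle after a single dominant transcript. Abundance here means these values, which were read as read numbers over a factor for each library, without correction for transcript length. A high rank is thus a high number of reads and not a measured number of transcript molecules. All 25197 genes of the deposited files were ranked by their mean value over 36 libraries, the first 37 Ensembl identifiers of the sheep annotation were set aside, and ranks 2 to 51 were taken, so that 50 of 25197 genes are members. The gene at rank 1, ENSOARG00000017195, had a mean of 6632306 normalised reads, and the first member, ENSOARG00000019316 at rank 2, one of 775419. The last member, ENSOARG00000020034 at rank 51, had a mean of 37836, and ENSOARG00000003852 at rank 52, the first gene outside, one of 37816, so the lower edge falls between genes of nearly the same level. The levels that chose the members are a description and carry no test.

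The infraspinatus is a rotator cuff muscle, and its tendon was cut from the bone in female Swiss Alpine sheep, 2 years old by the design text, and reattached after 16 weeks. The CONTROL arm had no drug. The N22W arm received 150 mg of nandrolone decanoate, an injected anabolic steroid ester, every week from the release onwards, and the N6W arm received the same weekly dose only from the repair onwards. Each arm is represented by 3 animals of the 6 named in the design text, and every animal gave 4 libraries, taken before release (PRE), on the day of repair (TR), 6 weeks later from the repaired shoulder (END) and, on that last occasion, from the other shoulder (END-CC). All animals underwent release and repair, so no arm without surgery stands beside them. The other shoulder was sampled only at the end, and release and the passing of 16 weeks cannot be told apart in TR against PRE. In N22W both shoulders had been exposed to the drug at the end, and in N6W likewise for the weeks after repair.

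A skeletal muscle fibre spends most of its messenger RNA on few genes: those for the contractile filaments, for the calcium pump and its stores, and for the enzymes of glycolysis and energy transfer. Unloading a muscle by cutting its tendon is known to shrink fibres and to let connective tissue and fat take up room. No name table at hand carries these identifiers, 0 of 25197 matched, and so the members are given by identifier or by rank, their roles cannot be stated, and neither muscle markers nor markers of fat, blood or connective tissue could be checked. In whole tissue, fewer cells of a type and less RNA per cell cannot be told apart, and that holds for each lower value below.

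The values, called normalised reads here, are read numbers over a factor for each library. Reads recovered from them summed to 11879736 to 43065773 per library. The smallest read number behind any member in any library was 130, so counting error is small beside the spread between animals. The 12 libraries of PRE and TR in CONTROL and in N22W are called set A, and the other 24 set B. From earlier work on these files the sets were taken to have been scaled apart, which no label states. The value of a single read had a geometric mean of 0.9989 in set A and of 1.0 in set B. The release change of CONTROL and N22W lies inside set A, and that of N6W and all differences between shoulders lie inside set B. The untreated release averages a change from each set.

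The 50 members held 31.3% ± 2.79 (SD, n = 36 libraries) of all summed values, between 26.3% and 37.7%. The dominant transcript alone held 22.5 to 37.2%. Ranks 2 to 11 held 15.7 to 21.4%, so that on average the first 10 members carried more than the 40 that follow. Rank 2 by itself had between 1.82% and 5.87%, and rank 51 a mean of 0.166%. With the dominant transcript and the first 37 identifiers left out of the total, the members' share was 45.9%, with a range of 38.3 to 53.2%.

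Membership was not the same in every library. Between 41 and 48 of the members stood among the 51 most abundant genes of any single library, and 28 of the 50 did so in all 36 libraries. Ranks 12, 13, 14, 19 and 36 stood there in each of the 12 libraries of set A and in none of the 24 of set B. These 5 members held 6.14% of the values in set A, between 4.39% and 7.78%, and 0.172% in set B, between 0.0993% and 0.265%. The other 45 members held 27.2% in set A, with a range of 24.9 to 30.4%, and 30.1% in set B, with a range of 26.1 to 34.9%. Ranking by the median over libraries, or by the mean of set B alone, drops exactly those 5 members and keeps the other 45, while ranking by the mean library share exchanges only rank 51 for rank 52.

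**Figure D1:**
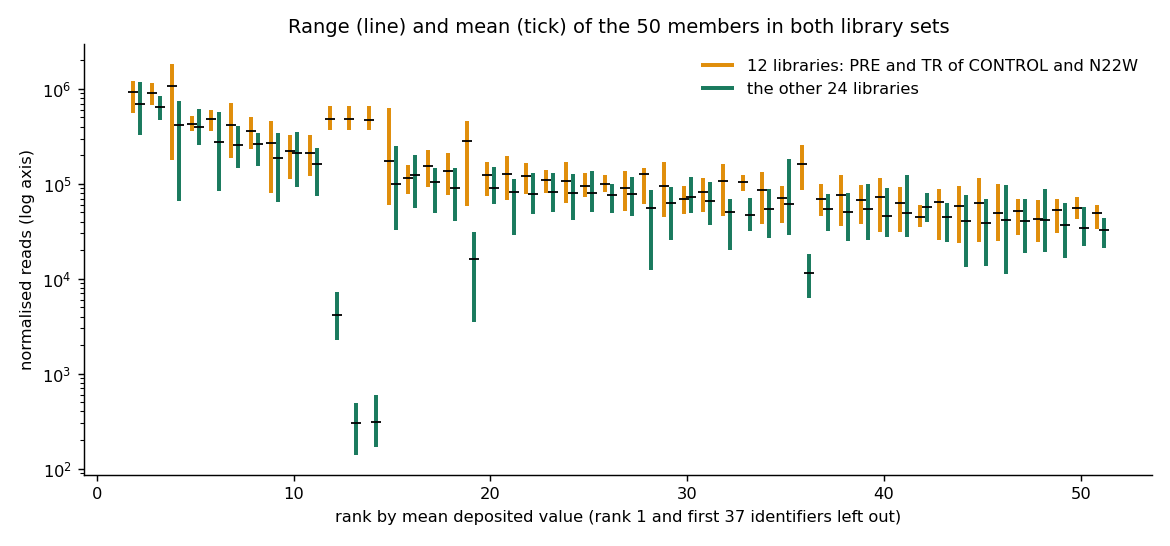
Normalised reads (log axis) of the 50 members against rank. Orange lines span the lowest to the highest of the 12 libraries of set A (PRE and TR in CONTROL and in N22W), green lines that of the other 24 libraries, and ticks are means. Ranks 12, 13, 14, 19 and 36 lie far lower in the 24 libraries, and the other 45 members differ far less between the sets.

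Ranks 12, 13 and 14 behaved as a trio. In each library of set A their values lay within 0.62% of each other, and in CONTROL rank 12 stood at 460000, 656500 and 485300 normalised reads at PRE and at 396700, 575200 and 495000 at TR. In set B rank 12 ranged from 2276 to 7263 only, and the log2 ratio of rank 12 to rank 13 was 3.03 to 4.52. Genes with values this close may share reads, and since no source used here says how reads were assigned to near-identical copies, the values of these 3 members are uncertain. Within each arm the trio moved little from PRE to TR, with mean log2 changes over 9 animals of -0.13 for rank 12, -0.17 for rank 13 and -0.12 for rank 14, and limma called none of the 3 in any comparison made.

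Ranks 4 and 19 followed each other. The value of rank 4 was 3.09 to 4.12 times that of rank 19 in every library of set A, and 17.6 to 31.2 times in every library of set B, while rank 4 itself spanned 11.4-fold among the 24 libraries of set B. The ratio thus differed between the sets and stayed in a narrow band within each of them. Ranks 24 and 45 also kept near each other, with a ratio of 1.35 to 2.57 in set A and of 1.64 to 3.23 in set B.

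The members differed in how steady they were among animals of the same group. Rank 4 varied most, with an SD of 0.80 on the log2 scale within groups, followed by rank 15 with 0.77, rank 28 with 0.73 and rank 19 with 0.72. Ranks 3 and 51 varied least, each with an SD of 0.21. The median over the members was 0.35, and over all 16417 genes tested it was 0.34, so high abundance did not come with a smaller spread here.

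From PRE to TR most members were lower, and the sum of the 50 had a smaller share in 8 of 9 animals. In CONTROL the members' share went from 36.1, 37.7 and 34.1% at PRE to 31.5, 32.7 and 33.0% at TR, in the order of animals 2901, 2902 and 2903. All 3 animals had a lower share at TR, the groups did not overlap, and the mean difference was -3.56 ± 2.16 percentage points (SD, n = 3). In N22W the difference was -1.84 ± 2.07 points and every animal was again lower, with -0.08 points in the animal that moved least. In N6W it was -2.65 ± 3.07 points, with values from -5.87 to 0.249, and the animal that was higher was 2907.

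Rank 4 made the largest contribution to that lower share. Its own share went from 4.63% to 3.20% in CONTROL, a difference of -1.43 ± 0.418 points. In N22W it went from 3.98% to 2.06%, a difference of -1.91 ± 1.59, and in N6W from 3.82% to 1.59%, a difference of -2.23 ± 0.433. Rank 3 had a larger mean share at TR, with differences of 0.345 ± 0.921 points in CONTROL, 0.772 ± 0.332 in N22W and 0.725 ± 0.612 in N6W (SD, n = 3 in each arm). The CONTROL animals were not alike: the log2 change of its value was 0.43 in 2901, -0.41 in 2902 and -0.55 in 2903. No p is given for shares, since the members were chosen on level.

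**Figure D2:**
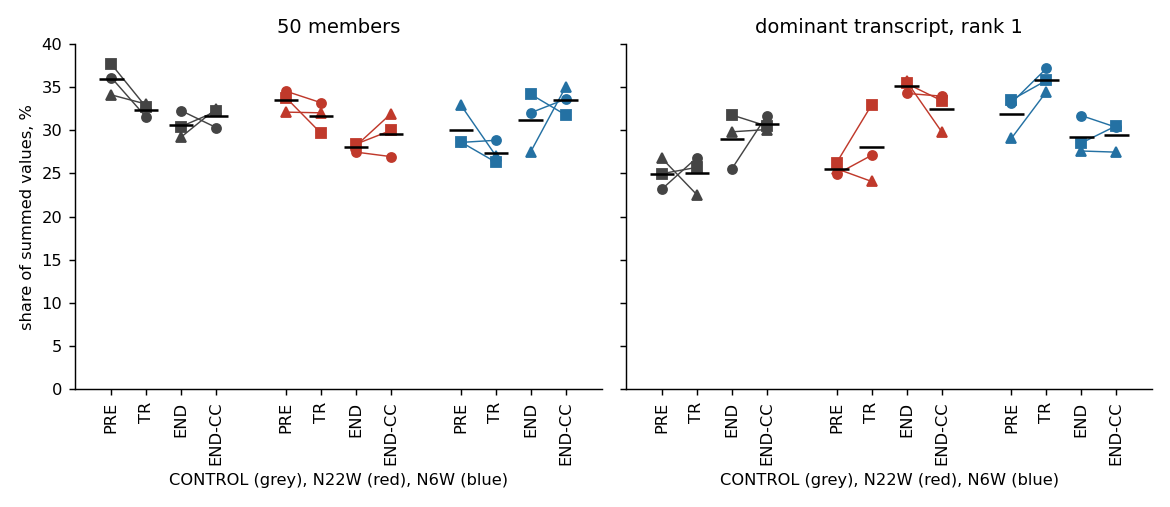
Share of all summed values in percent, for the 50 members (left) and the dominant transcript (right), by arm and time point. Points are animals (circles 2901, 2913 and 2907, squares 2902, 2914 and 2908, triangles 2903, 2915 and 2909), lines join libraries of the same animal within a compared pair, and black bars are means. The members' mean share is lower at TR than at PRE in all 3 arms and lower at END than at END-CC in all 3.

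Over the release without drug, 14 members fell and 1 rose. This comparison took the mean TR minus PRE change of the 6 animals in CONTROL and in N6W, none yet given the drug, with limma on log2 values, the animal as a block and a false discovery rate of 0.05 over the 16417 genes tested. Of those genes 23.9% were called, 10.4% higher and 13.5% lower. The members' median log2 change was -0.35, where that of all genes tested was 0.004, and 42 of the 50 changes were negative, with values between -1.16 and 0.98. The members that fell were spread over the list, at ranks 7, 9, 11, 18, 19, 21, 24, 29, 34, 36, 38, 40, 44 and 45, and the member that rose was rank 15. Ranks 19 and 36 belong to the list only through the 12 libraries of set A, and without the 5 members of that kind 12 of 45 fell and 1 rose. Fitted on the compared libraries alone, 6 members passed in place of 15, and 2533 of all genes tested in place of 3925. Without CONTROL animal 2902 there were 8 members and 2204 genes, without N6W animal 2909 8 and 2239, and without CONTROL animal 2901 10 and 2786. Counts of members under other settings, here and below, stand against such a moving number of all genes called. Where that number is not printed, they say nothing on members against other genes. The members' median was -0.20 without 2909 and -0.53 without N6W animal 2907.

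Another scaling multiplies all values of a library by the same factor and so shifts the changes of all genes nearly alike. The members' median relative to other genes is therefore nearly fixed by construction and is no check on scaling. Its place around 0 did depend on scaling. Scaled to each library's sum without the dominant transcript and the first 37 identifiers, the median change of all genes tested moved from 0.004 to 0.21 and that of the members from -0.35 to -0.13. Relative to all genes tested the members' median stood at -0.35 under the authors' scaling and at -0.34 under the other, and 34 of 50 changes were negative in place of 42. The balance of calls over all genes turned with the scaling: scaled to the sum, 3090 genes were called higher and 634 lower, in place of 1707 and 2218, while the members had 2 higher and 13 lower. By arm the members' median when scaled to the sum was -0.23 in CONTROL, where all genes tested had 0.25, with 1527 called higher and 128 lower. It was -0.10 in N22W, where all genes tested had 0.24, with 1440 called higher and 448 lower. In N6W it was -0.11, where all genes tested had 0.14, with 562 called higher and 253 lower.

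ENSOARG00000008997, at rank 44, had the largest negative change. In CONTROL it stood at 86650, 93820 and 87260 normalised reads at PRE and at 36100, 39110 and 53870 at TR. In N6W it stood at 70450, 75680 and 71860 at PRE and at 39960, 43880 and 16640 at TR. All 6 animals were lower at TR, and the values of PRE and TR did not overlap in either arm. The log2 change was -1.16 ± 0.19 (SE, n = 6 animals) with an adjusted p of 0.000259 by limma. It passed the threshold with each of the 6 animals left out in turn. SEs of log2 changes, here and below, use a spread per gene that limma estimated from all 36 libraries. They are not the spread among the animals compared, whose number is given as n.

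ENSOARG00000009785, at rank 9, was close behind. It went from 399900, 460500 and 319000 to 124300, 180400 and 230300 in CONTROL, and from 284800, 252200 and 309500 to 188700, 178900 and 73180 in N6W. Again no TR value reached the lowest PRE value of its arm. The log2 change was -1.11 ± 0.29 (SE, n = 6) with an adjusted p of 0.00747 by limma, which became 0.0862 when only the libraries compared entered the fit.

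ENSOARG00000004431, at rank 15, was the one member that rose. In CONTROL it stood at 98710, 87200 and 132400 at PRE and at 312400, 157400 and 84310 at TR, and in N6W at 33000, 49360 and 69980 at PRE and at 139500, 70050 and 187200 at TR. Animal 2903 of CONTROL was lower at TR and the other 5 were higher, and PRE and TR overlapped in CONTROL but not in N6W. In N6W, TR lay wholly above PRE for 10.0% of all genes tested and 6.00% of the members. The log2 change was 0.98 ± 0.32 (SE, n = 6) with an adjusted p of 0.0270 by limma. The call was lost without CONTROL animal 2901 (adjusted p = 0.164), without 2902 (0.107), without N6W animal 2907 (0.114) and without 2909 (0.0790), and also without the animal block (0.116) and with only the compared libraries in the limma fit (0.0877).

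**Figure D3:**
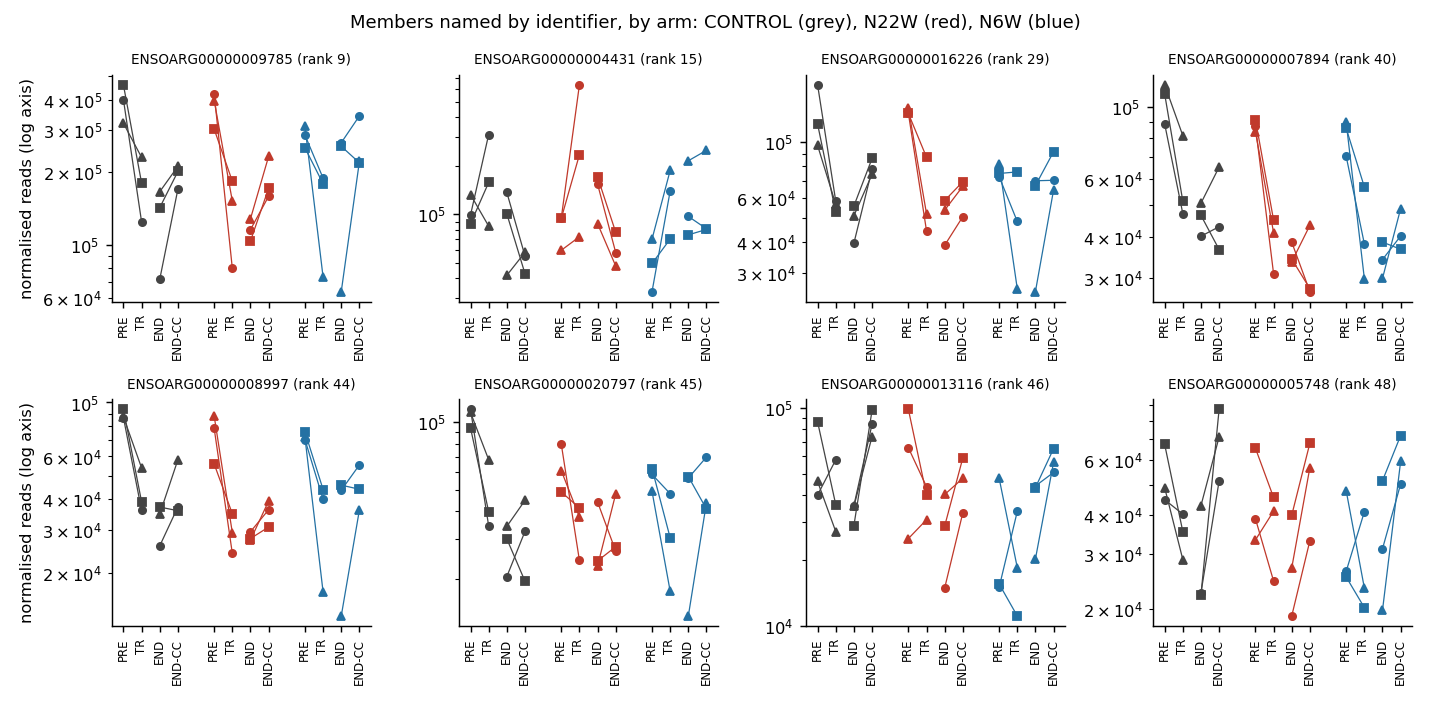
Normalised reads (log axis) of the 8 members named by identifier for a called change, by arm and time point. Each point is an animal's library (circles 2901, 2913 and 2907, squares 2902, 2914 and 2908, triangles 2903, 2915 and 2909), and lines join PRE with TR and END with END-CC of the same animal. Ranks 9, 40 and 44 are lower at TR than at PRE in all 9 animals, and rank 15 is higher at TR in 8 of 9.

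Taken arm by arm, CONTROL had 5 members that fell and none that rose, where 11.2% of all genes tested were called, 4.21% higher and 7.02% lower. The members' median log2 change was -0.55, beside -0.06 for all genes tested. Ranks 11, 29, 40, 44 and 45 were called. The largest was ENSOARG00000020797, at rank 45, which went from 114200, 94320 and 110500 normalised reads to 34470, 39880 and 68020. No TR value reached a PRE value. Its log2 change was -1.22 ± 0.36 (SE, n = 3) with an adjusted p of 0.0298 by limma. The second was ENSOARG00000016226, at rank 29, which went from 169100, 118100 and 97040 to 58250, 52520 and 56550, a log2 change of -1.16 ± 0.28 with an adjusted p of 0.0128 by limma. Rank 45 needed all 3 animals and rank 29 needed 2901 and 2902: for rank 45 the adjusted p was 0.217 without 2901, 0.174 without 2902 and 0.0624 without 2903, and for rank 29 it was 0.117 without 2901 and 0.126 without 2902. Rank 45 also missed the threshold without the animal block (0.0955) and when scaled to the sum (log2 change -0.90, adjusted p = 0.0513 by limma). With an animal left out the arm had 0 members called without 2901, 0 without 2902 and 2 without 2903. Without the block 1 member passed, beside 732 of all genes tested. On recovered reads edgeR called 8 members beside 1802 of all genes tested, and DESeq2 called 14 beside 2178.

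In N22W, with nandrolone given throughout the release, 12 members fell and 1 rose, where 16.8% of all genes tested were called, 5.26% higher and 11.6% lower. The members' median log2 change was -0.39, beside -0.04 for all genes tested. Scaled to the sum, 8 fell and 3 rose, and 32 of the 50 changes were negative in place of 42. Without the members high only in set A, 10 fell and 1 rose. ENSOARG00000009785 (rank 9) went from 423300, 301400 and 396500 to 79550, 183200 and 151500 normalised reads, ENSOARG00000008997 (rank 44) from 78180, 55860 and 87870 to 23970, 34900 and 29150. In neither did TR reach PRE, which also held for 18.2% of all genes tested and 38.0% of the members. The log2 change of rank 9 was -1.51 ± 0.41 (SE, n = 3; adjusted p = 0.0140 by limma). That of rank 44 was -1.33 ± 0.27 (adjusted p = 0.00275 by limma). ENSOARG00000004431 (rank 15) went from 94530, 94100 and 59640 to 636600, 234200 and 72360, higher in all 3 animals though TR and PRE overlapped. Its log2 change was 1.45 ± 0.45 (adjusted p = 0.0284 by limma).

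The calls in N22W changed with the animals in the fit. Without 2913 no member passed, without 2915 2 did, and without 2914 11 did. The numbers of all genes called in these fits are not given here, and a fit with an animal left out also has fewer libraries. Rank 9 had a log2 change of -1.05 without 2913 (adjusted p = 0.263 by limma) and of -1.57 without 2915 (0.0950). Rank 44 had one of -1.14 without 2913 (adjusted p = 0.0787 by limma) and of -1.19 without 2915 (0.0612). Rank 15 had one of 0.80 without 2913 (adjusted p = 0.396 by limma) and of 1.52 without 2914 (0.0844). Without the animal block 7 members passed, rank 15 no longer among them (adjusted p = 0.129), and with only the compared libraries 1 did, with adjusted p of 0.126 for rank 9 and 0.134 for rank 15. With only the libraries of set A in the limma fit, 4 members passed, and ranks 9 and 15 had adjusted p of 0.0571 and 0.0994.

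In N6W, untreated until repair, 2 members fell and none rose, where 6.98% of all genes tested were called, 3.76% higher and 3.22% lower. Scaled to the sum, 2 fell and 3 rose. The members' median log2 change was -0.22, beside 0.04 for all genes tested. Without animal 2909 the median was 0.02 and 26 of the 50 changes were positive, and without 2907 it was -0.49. ENSOARG00000008997 (rank 44), whose values are given above, had a log2 change of -1.24 ± 0.27 (SE, n = 3; adjusted p = 0.00911 by limma). ENSOARG00000007894 (rank 40) went from 70460, 85860 and 89460 to 38170, 56900 and 29890 normalised reads, without overlap, a log2 change of -1.02 ± 0.23 (adjusted p = 0.0101 by limma). Without animal 2909 no member passed, with log2 changes of -0.80 for rank 44 (adjusted p = 0.109 by limma) and of -0.74 for rank 40 (0.147). With only the compared libraries in the limma fit none passed either, with adjusted p of 0.294 and 0.367. Without the animal block 1 member passed, and rank 44 had an adjusted p of 0.0502. DESeq2 on recovered reads called 15 members, 13 lower and 2 higher.

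The 3 animals of N6W were not alike. The median member change from PRE to TR was 0.17 in animal 2907, with 31 of 50 members higher, -0.24 in 2908 and -0.82 in 2909. In the other arms the median was negative in all 6 animals, from -0.70 in 2902 to -0.25 in 2914.

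**Figure D4:**
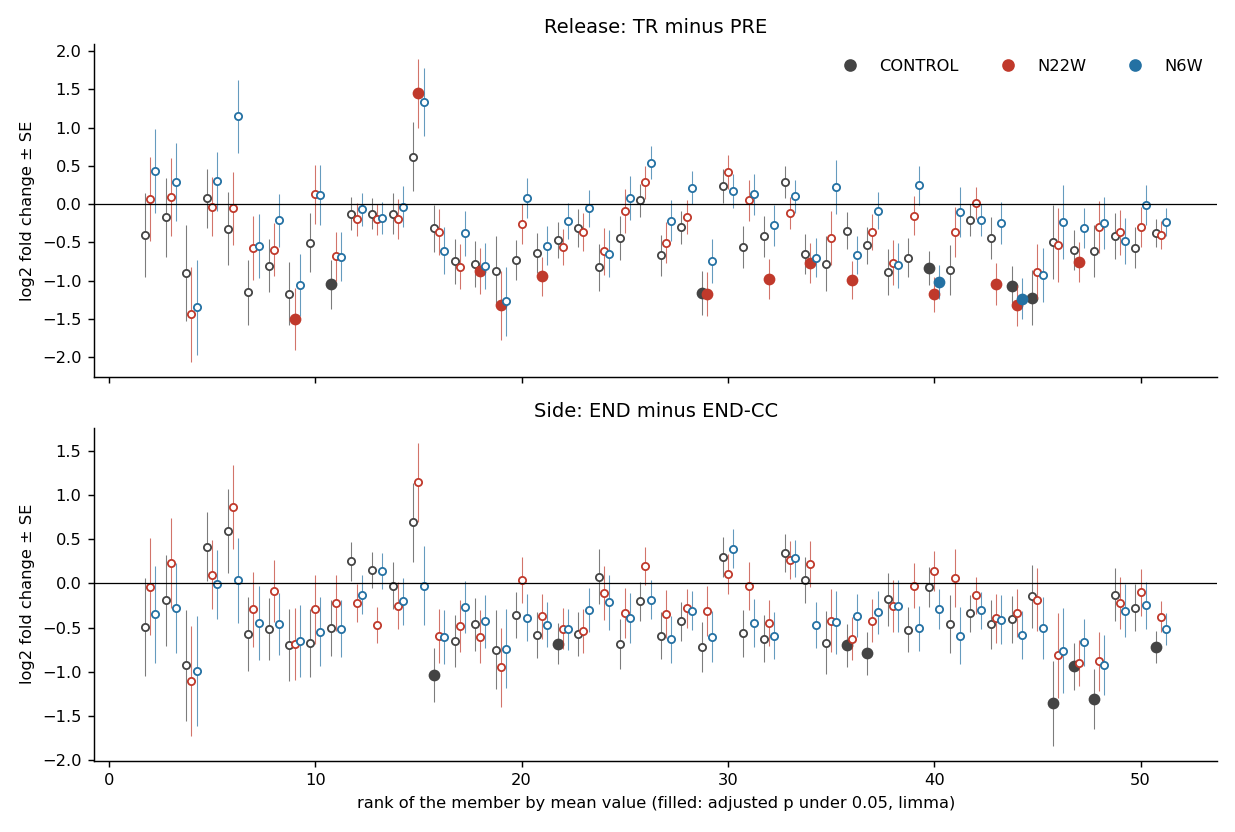
Log2 fold change with its SE for each of the 50 members against rank, by arm: TR minus PRE (top) and END minus END-CC (bottom). Filled points passed an adjusted p of 0.05 by limma. Most points of all 3 arms lie below 0 in both panels, and rank 15 stands highest at release in N22W and N6W.

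Direction was also counted animal by animal, a count that needs no estimate of the spread. In CONTROL 35 members were lower in all 3 animals and 2 higher, where 29.7% and 21.0% of all genes tested were. In N22W 32 were lower and 2 higher in all 3 (28.0% and 19.6% of all genes tested), and in N6W 15 and 6 (17.8% and 19.4%). Most members were thus lower in every animal of CONTROL and of N22W, and fewer in N6W. In all 6 untreated animals 13 members were lower and 0 higher, where 11.4% and 7.83% of all genes tested were. From PRE to TR 12 members were lower in all 9 animals, at ranks 4, 9, 11, 18, 19, 21, 24, 34, 38, 40, 44 and 45, and none was higher in all 9. Of all genes tested, 8.70% were lower and 4.36% higher in all 9. The same 12 members were counted under TMM scaling and under DESeq2 size factors. Scaled to the sum, 13 were lower, with ranks 7 and 17 gained and rank 24 lost, and rank 26 was higher in all 9, where 2.66% of all genes tested were lower and 8.81% higher. Without the members high only in set A, 11 of 45 were lower under the authors' scaling. Rank 4 is among them: it went from 1303000, 1849000 and 1629000 normalised reads to 596600, 999900 and 1005000 in CONTROL, from 1454000, 782200 and 1732000 to 179900, 625900 and 873500 in N22W, and from 719000, 715300 and 700900 to 371200, 361800 and 161600 in N6W. Only in N22W did TR overlap with PRE. It was not called over the untreated release, with a log2 change of -1.13 ± 0.44 (SE, n = 6 untreated animals) and an adjusted p of 0.0661 by limma.

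Between shoulders at the end, members were again lower on the operated side. In CONTROL the log2 difference END minus END-CC had a median of -0.50 over the members and of 0.06 over all genes tested, and 8 members were lower and none higher by limma, where 19.4% of all genes tested were called, 9.53% higher and 9.87% lower. The 8 were ranks 16, 22, 36, 37, 46, 47, 48 and 51, or 7 of 45 without rank 36 and the others high only in set A. Relative to all genes tested the members' median was -0.56 under the authors' scaling and -0.54 when scaled to the sum, nearly equal by construction. Scaled to the sum, 34 of the 50 differences were negative in place of 41, and 2671 of all genes tested were called higher and 376 lower. The 8 calls of members needed all 3 animals: without 2901 no member passed, and without 2902 or without 2903 1 did. Other settings gave 4 members without the animal block, 5 with no filter on low values, 5 scaled to the sum, 4 with only set B in the fit and 16 by DESeq2.

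ENSOARG00000013116, at rank 46, stood at 84210, 97470 and 73930 normalised reads in END-CC of CONTROL and at 35680, 28860 and 35370 in END. ENSOARG00000005748, at rank 48, stood at 51450, 87440 and 71220 in END-CC and at 22500, 22140 and 42860 in END. Neither overlapped between shoulders. END lay wholly below END-CC for 16.1% of all genes tested and 46.0% of the members in this arm. The log2 difference of rank 46 was -1.35 ± 0.48 (SE, n = 3; adjusted p = 0.0496 by limma) and that of rank 48 was -1.30 ± 0.34 (adjusted p = 0.0111 by limma). Rank 46 lay at the edge of the threshold and lost the call in all alternatives but the fit on the compared libraries alone, with adjusted p of 0.0501 to 0.220. These include 0.151 without 2901, 0.220 without 2902 and 0.141 without 2903. Rank 48 had a log2 difference of -1.36 without 2901 (adjusted p = 0.0647 by limma) and of -0.96 without 2902 (0.143).

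In both treated arms the members' median was below 0 as well, without calls. In N22W the members' median difference was -0.29 and in N6W it was -0.42, beside 0.05 and 0.03 for all genes tested. The value of N6W rested on animal 2909: without it the median was -0.06 with 21 of the 50 differences positive, and without 2908 it was -0.65. In N22W the median ran from -0.38 to -0.20 with an animal left out. limma called 0 members in either, where 1.60% of all genes tested were called in N22W, 0.822% higher and 0.780% lower, and 4.12% in N6W, 2.55% higher and 1.58% lower. At an unadjusted p under 0.05 there were 9 members in N22W and 8 in N6W, edgeR called 0 in both, and DESeq2 called 1 and 2. With only the compared libraries in the limma fit N22W had 5 members called, 4 lower and 1 higher. Rank 48 stood at 33050, 68040 and 56800 in END-CC and at 18930, 39900 and 27020 in END of N22W, and at 50280, 71970 and 59470 against 31130, 51530 and 19750 in N6W. It was lower on the operated side in all 6 animals, with log2 differences of -0.88 ± 0.34 (adjusted p = 0.158 by limma) and -0.92 ± 0.34 (0.102). Rank 46 was lower in all 6 as well, with -0.81 ± 0.48 (adjusted p = 0.359 by limma) and -0.76 ± 0.48 (0.334).

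Between shoulders 33 members were lower and 1 higher in all 3 CONTROL animals, where 26.3% and 29.0% of all genes tested were. In N22W 25 were lower and 3 higher (21.3% and 24.6% of all genes tested), and in N6W 16 and 1 (20.7% and 20.8%). Counted over all 9 animals, 12 members were lower in END than in END-CC in each animal, at ranks 10, 16, 21, 22, 27, 29, 32, 36, 46, 47, 48 and 51, and none was higher in each. Of all genes tested 9.81% were lower and 7.43% higher in each animal. Without rank 36 and the others high only in set A, 11 of 45 were lower. The count was 12 under TMM scaling, 13 under DESeq2 size factors and 8 when scaled to the sum, where 3.42% of all genes tested were lower in each animal. The members' share of all summed values varied more between animals. END minus END-CC was -1.02 ± 2.69 points in CONTROL, -1.59 ± 2.12 in N22W and -2.24 ± 4.99 in N6W (SD, n = 3), and in every arm an animal was higher in END. With the dominant transcript and the first 37 identifiers left out of the total, all 3 animals of CONTROL were lower in END, with a mean of -2.82 ± 1.93 points. In N22W the mean was then -0.71 ± 1.42 and in N6W -3.40 ± 6.51, each with an animal that was higher.

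Animal 2909 of N6W had the lowest members on the operated side. Its median member difference between shoulders was -1.06, with 47 of 50 members lower, and 2908 of the same arm had 0.14, with 30 of 50 higher. Rank 4 stood at 65870 in END of 2909, against 427900 and 484600 in the other N6W animals, and rank 44 at 13270, against 43600 and 45760. Both were low in this animal at TR as well, at 161600 and 16640.

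Release changes and side differences of the members had the same sign more often than not, but the members that stood out in one seldom did in the other. Untreated release and the CONTROL shoulders had the same sign in 43 of 50 members and in 72.6% of all genes tested. Within arms the number was 44 in CONTROL, 39 in N22W and 37 in N6W, beside 70.7%, 68.6% and 65.9% of all genes tested. Of the 12 members lower in all 9 animals in each comparison, rank 21 alone was in both, 8.33% of either list. Over all genes tested 517 were in both, 36.2% of the 1428 lower at release and 32.1% of the 1610 lower on the operated side. In CONTROL it stood at 162000, 163800 and 164000 at PRE, at 113900, 101900 and 98730 at TR, at 55970, 74060 and 72670 at END and at 104000, 86140 and 113100 in END-CC. Neither pair overlapped in that arm. Of the members called by limma, rank 36 alone was among the 14 of untreated release and the 8 of the CONTROL shoulders, 7.14% of the former and 12.5% of the latter, and it is one of the members high only in set A. Over all genes tested 941 were in both, 42.4% of 2218 and 58.1% of 1620. The difference in overlap between members and all genes was not tested. Ranks 24, 34 and 40, lower at TR in all 9 animals, had log2 differences between CONTROL shoulders of 0.08 ± 0.31, 0.04 ± 0.26 and -0.04 ± 0.23 (SE, n = 3). Ranks 46 and 48 had untreated release changes of -0.36 ± 0.34 (adjusted p = 0.475 by limma) and -0.43 ± 0.24 (0.203). Whether the release change and the side difference of a member differ was not tested.

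**Figure D5:**
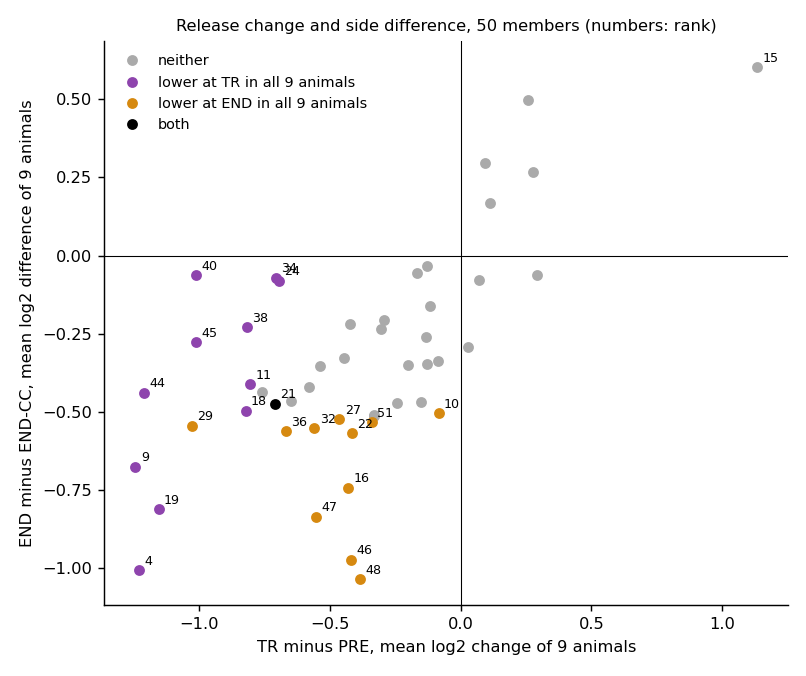
Mean log2 change TR minus PRE against mean log2 difference END minus END-CC over 9 animals, 1 point per member. Purple members were lower at TR in all 9 animals, orange members lower at END in all 9, and the black member, rank 21, in both. Rank 15 is highest on both axes, and ranks 40, 24 and 34 are low at release with side differences near 0.

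Nandrolone during release was compared with untreated release member by member. No member passed, by limma, in the change of N22W minus that of the 6 untreated animals, where 0.0548% of all genes tested were called, 0.0244% higher and 0.0305% lower. The members' differences ran from -0.70 to 0.47 with a median of -0.08 and SEs of 0.22 to 0.76, 1 member had an unadjusted p under 0.05, and the lowest adjusted p was 0.621. Against CONTROL alone, a comparison added after the data had been seen, no member passed and none had an unadjusted p under 0.05 by limma. Differences of the size of the SEs, and some larger ones, could not be detected with 3 treated animals.

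The side differences of the treated arms were compared with that of CONTROL in the same way. For N22W minus CONTROL 0% of all genes tested were called, the members' median difference was 0.18 with a range of -0.62 to 0.54, and 1 member had an unadjusted p under 0.05. For N6W minus CONTROL 0% were called as well, the median was 0.03 with a range of -0.71 to 0.59, and no member had an unadjusted p under 0.05. SEs were 0.26 to 0.88 in both. The lowest adjusted p of a member was 0.981 and 1.00 by limma. edgeR and DESeq2 on recovered reads called 0 members in each of these differences between arms. At an unadjusted p under 0.05 limma counted 753 and 672 of all 16417 genes for the 2 side comparisons.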

How the data were processed

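Total RNA of 36 biopsies was made into stranded libraries after ribosomal depletion with human probes, from samples with an RNA integrity number of at least 7, per the labels' protocols. STAR 2.3.0e, R 3.0.2 and the assembly Oar_v3.1 appear in the submitters' processing notes without a role. Which program counted reads, with which annotation and size factor, is not stated in the sources used. The authors deposited 1 signal per Ensembl identifier and library. Each library's signal values were whole multiples of a step, so they were read as reads over a size factor: for values up to 100 reads, even the library with the lowest share had 100% within a tolerance of 0.1 of whole reads.

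limma 3.58.1 in R 4.3.3 with a mean-dependent prior was run on log2(value + 1) of 16417 genes, whose median value was 0.5 or more; all 50 members passed that filter. Folds are on that scale. All 36 libraries entered with animals as blocks and means for arm and time combined (18 residual degrees of freedom), and p-values were adjusted by Benjamini-Hochberg over the genes tested. The same animals gave all 4 biopsies, by the design text. Deviations from group means had a mean r of 0.24 over 54 same-animal pairs (lowest 0.0037). Between animals of an arm it was -0.12, a value that subtracting the group means nearly fixes from the first, so it adds no evidence on pairing. No 2 libraries of a group were copies (chi-square per gene 15.2 to 155.8). Recovered reads were tested with edgeR 4.0.16 and DESeq2 1.42.0 as alternatives, which called 3877 and 3999 of 16417 genes for untreated release, where limma called 3925. The fits were also run on simulated data with known changes and no difference between sets A and B. That run checks the calculation only and does not show how the fits behave on the real data.

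Identifiers were printed for the edges of the ranking and, per comparison, for at most 2 rising and 2 falling members past the threshold with the largest change. The members and lists were chosen with earlier results of these data known. No sequence is printed, since no identifier matched the name table. Counts without the 5 members high only in set A, and overlaps over all genes, were added after the data had been seen.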

Additional observations from a re-analysis of the deposited data

How the results depend on the processing

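For the 12 changes of named members, 118 of 162 values under alternatives kept direction and call, 44 missed the threshold and none reversed. Of 159 counts of members under alternatives, 127 were within 1.5 times. A count of 0 beside 0 was taken as within, as in every alternative of the differences between arms. There were 18 of these for release in N22W minus untreated and 16 for release in N22W minus CONTROL. The side differences of N22W and of N6W minus CONTROL had 16 each. The number 127 is therefore no measure of stability. Leaving out an animal gave 8 to 20 members for untreated release, 0 to 2 for CONTROL, 0 to 11 for N22W, 0 to 2 for N6W and 0 to 1 for the CONTROL shoulders. Without the animal block (no pairing) the counts were 1 for release in CONTROL, 7 in N22W, 1 in N6W and 4 for the CONTROL shoulders; the calls of rank 15 in untreated release and N22W, rank 45 in CONTROL, rank 44 in N6W and rank 46 between CONTROL shoulders were lost, and no other named call was. With only the compared libraries there were 6 for untreated release, 1 for N22W, 0 for N6W and 5 for the N22W shoulders. DESeq2 gave 14 for CONTROL, 15 for N6W, 16 for the CONTROL shoulders, 1 for the N22W shoulders and 2 for the N6W shoulders, and edgeR 8 for CONTROL. Scaling to the sum gave 3, 5 and 5 for CONTROL release, N6W release and CONTROL shoulders, and no filter 5 for the last. With only the same set, chosen after seeing the data, there were 3 for CONTROL release, 4 for N22W release and 4 for the CONTROL shoulders. The number of all genes called moved with the setting too, for untreated release from 2204 to 4237 with an animal left out. The counts of members here stand without that number and say nothing on members against other genes. The cause of the shifts in counts was not tested. The members' share was 45.9% of the sum without the first 37 identifiers and the dominant transcript. With 3 animals per arm, many of these calls were lost when a single animal was left out, which also leaves fewer libraries in the fit.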
